A study of Solenopsis invicta with 3 samples.

Results

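RNA from the antennae of workers of the fire ant *Solenopsis invicta* had been assembled into 57377 transcript models, and 2562 of them (4.47%) were spliced and lay between the known genes. These transcripts were chosen by 2 properties of the deposited models, namely the class code u, which Cufflinks gives to a model that falls between the genes of the reference set, and 2 or more exons. They came from 1736 of the 37105 loci, a locus being a group of overlapping models under 1 XLOC identifier. The study examined worker antennae for effects of the social supergene, a chromosomal region inherited as a unit in the variants *SB* and *Sb*, and of social form, which is monogyne with a single queen per colony or polygyne with several. RNA came from 3 pools, with 1 library each: the P_Bb class (*SB/Sb* genotype, polygyne), the P_BB class (*SB/SB* genotype, also polygyne) and the M_BB class (*SB/SB*, monogyne). Both polygyne pools drew on the same colonies and the monogyne pool on others, the ages of the workers are not given in the sources used here, and the cDNA of each sample had been amplified before pooling. The models were built from the pools together, so they hold no comparison between worker classes, and no expression value is attached to them.

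When a gene is transcribed, the introns are cut out and the exons joined, so a read that spans a junction shows both the exon structure and, through the bases at the intron ends, the strand. A transcript read as a single exon carries no such mark. Spliced transcripts outside an annotation can be protein-coding genes that it lacks, untranslated ends of genes it holds, or long noncoding RNAs. These kinds were not told apart here, since no genome sequence was used.

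Of the 24008 transcripts with class code u, the spliced ones made up 10.7%, and the other 21446 had a single exon. The spliced transcripts were 8.35% of the 30700 multi-exon models in the set. A strand was recorded for each of the 2562, with 1292 on the plus strand (50.4%) and 1270 on the minus strand, whereas 93.2% of the single-exon transcripts between genes had none. For comparison, 13372 multi-exon models matched the intron chain of a reference gene model (class code =), and 11994 of these were the reference models themselves. Values of the matching models thus mainly describe the annotation. A further 12184 assembled models shared at least 1 splice junction with a reference model without matching it (class code j). Reference models in the file were mostly coding sequence, as 14877 of 16521 (90.05%) had a length divisible by 3. Assembled models of class j are therefore the closer comparison for whole transcripts, but with a limit. Their code asks for a shared junction and a different intron chain, and models with few introns have fewer ways to meet both. Their exon numbers, spliced lengths and forms per locus may thus partly follow from the code, and how much was not tested. The 3 libraries held between 3351500 and 3948464 expected counts in the separate expression tables, which is the only depth given here. All values describe 1 merged set of models without replicates, and the 95% intervals below treat models as independent, which those of 1 locus are not.

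The spliced transcripts between genes were mostly short chains of exons. They had a median of 3 exons and a mean of 4.13, and the transcript with the most had 37. Exactly 2 exons were found in 953 of them (37.2%, Wilson interval 35.3–39.1%), 3 exons in 501, 4 in 346 and 5 in 226. Between 6 and 10 exons were carried by 435, more than 10 by 101, and more than 20 by 13. Models with 2 exons were less frequent among those that matched the reference (26.4%, interval 25.6–27.1%) and among those that shared a junction (4.19%, interval 3.85–4.56%). At the other end, 3.94% of the spliced transcripts between genes had more than 10 exons, against 7.84% of the matching and 25.8% of the junction-sharing models. The contrasts with junction-sharing models may partly follow from their class code, and how much was not tested.

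**Figure D1:**
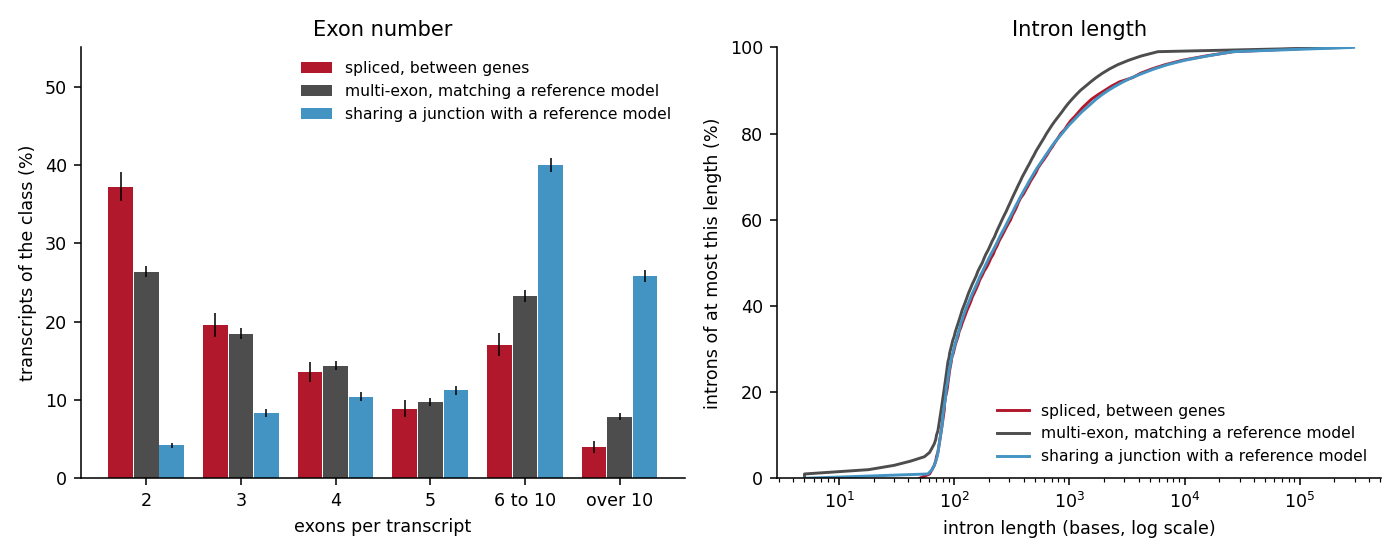
Left, share of transcripts (%, bars, with 95% Wilson intervals) by number of exons for spliced transcripts between genes (red, n = 2562), multi-exon models matching the reference (grey, n = 13372) and models sharing a junction with it (blue, n = 12184). Right, the share of introns (%) at or below each length (bases, log scale) for the same classes; the red bar at 2 exons reaches 37.2%, and the red and blue intron curves nearly overlie each other while the grey curve runs to the left of them.

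The spliced length, which is the sum of the exons, had a median of 1843.5 bases (95% order-statistic interval 1774–1915; quartiles 1143 and 3154.5) and ran from 236 to 23908 bases. Single-exon transcripts between genes were shorter, with a median of 1230 bases (interval 1218–1243). Junction-sharing models were longer, with a median of 3800 bases (interval 3742–3865). Here too, the part played by their class code was not tested. The median genomic span, from the first to the last base, was 3473 bases (interval 3335–3625). Transcripts with 2 exons had a median spliced length of 1571 bases, those with 3 exons 1496 and those with 4 to 5 exons 1774.5. It was 2403 bases with 6 to 10 exons and 4081 bases with more than 10. Over the same classes the median intron became shorter, from 348 bases with 2 exons to 166 with 6 to 10 and 123 with more than 10.

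The longest exon held a median of 62.7% of the spliced length (quartiles 47.4% and 79.8%), against 47.8% in matching and 50.1% in junction-sharing models. The longest position was the last. The median exon had 240 bases over all positions, 338.5 bases in first position, 177 bases in internal positions and 819.5 bases in last position. Junction-sharing models had the same order, with 283, 194 and 1425 bases. Models that matched the reference, most of them the reference models themselves, had 163, 189 and 201 bases, and so lacked the long ends. First or last exons under 10 bases occurred in 11 of the 2562 transcripts.

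**Figure D2:**
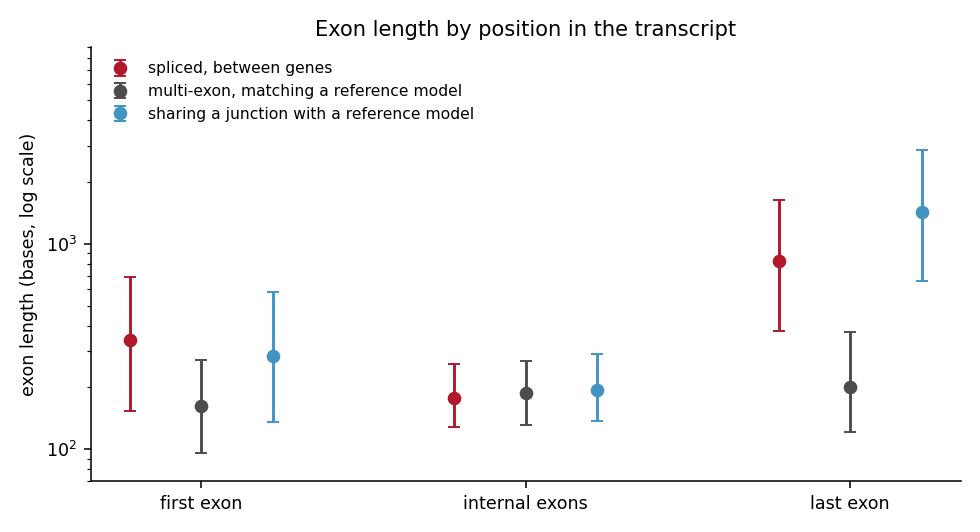
Exon length (bases, log scale) by position in the transcript; points are medians and lines run from the first to the third quartile, for spliced transcripts between genes (red), multi-exon models matching the reference (grey) and models sharing a junction with it (blue). Internal exons lie close together in the 3 classes (medians of 177, 189 and 194 bases), and last exons lie apart (819.5, 201 and 1425 bases).

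Internal exons keep the reading frame of a protein when their length is a multiple of 3, so this share was taken as a description of the exons. Of the 3589 distinct internal exons, 1375 (38.3%, interval 36.7–39.9%) had a length divisible by 3, 1154 left a remainder of 1 and 1060 a remainder of 2. The share divisible by 3 was 37.0% (interval 36.5–37.5%) in matching and 37.3% (interval 36.8–37.8%) in junction-sharing models, both within the interval of the spliced transcripts between genes. The whole spliced length was divisible by 3 in 34.0% of the spliced transcripts between genes.

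The 8030 introns had a median of 199.5 bases (interval 190–209), compared with 175 bases (interval 171–178) in matching and 191 bases (interval 188–194) in junction-sharing models. In both comparison classes introns ran down to 5 bases, with 4.59% below 50 bases in matching and 0.599% in junction-sharing models. In the spliced transcripts between genes the shortest had 50 bases. Whether the assembly set a lower limit on intron length is not given in the sources used here. Introns of 50 to 99 bases made up 29.8%, and the most frequent lengths were 80 to 89 bases (772 introns) and 70 to 79 bases (751 introns). In transcripts with 3 or more exons the first intron was the longer, with a median of 320 bases against 157 for later ones. The same order was found in matching models (285 and 155 bases) and junction-sharing models (535 and 166 bases). The shortest introns belonged to TCONS_00027691 on scaffold00053 (50 bases), TCONS_00030571 on scaffold00068 (51 bases) and TCONS_00044795 on scaffold00209 (51 bases).

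Long introns were few. Introns of 10000 bases or more numbered 230 (2.86%), close to the 3.0% of junction-sharing models and above the 0.252% of matching models. At least 1 intron of more than 10000 bases was present in 187 transcripts (7.30%) at 136 loci. Among the 194 distinct introns of this length, 153 (78.9%) contained a whole single-exon transcript between genes. The same share was not taken for other long introns or for other stretches of this length between genes. The longest intron of the spliced transcripts was in TCONS_00018343 (Si_gnH.scaffold00024:577215-832384, minus strand). Its 3 exons of 3036 bases in all spanned 255170 bases with introns of 68955 and 183179 bases. TCONS_00007349 on scaffold00005 had 1 intron of 111901 bases between its 2 exons, and TCONS_00012300 on scaffold00012 had an intron of 110616 bases. TCONS_00046614 on scaffold00237 spanned 161173 bases and TCONS_00026993 on scaffold00050 spanned 156137 bases, with exons of 2880 and 1739 bases in all. In these transcripts the exons covered a small part of the span, as little as 1.11% in TCONS_00026993.

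The longest spliced lengths, in contrast, came from few and very long exons. TCONS_00054757 (Si_gnH.scaffold00629:13314-39031, plus strand) had 2 exons of 23908 bases in all, 15216 of them in the longer exon. TCONS_00054247 (Si_gnH.scaffold00568:9876-30019, minus strand) had 3 exons, 1 of which held 19067 of 19756 bases (96.5%). TCONS_00010220 (Si_gnH.scaffold00009:3217740-3238893, plus strand) likewise had 17110 of 17498 bases in 1 of its 3 exons. Each of them overlapped the span of a transcript of another class. TCONS_00054757 and TCONS_00010220 were part of loci that also held models of other classes, and the reference models nearest to the 3 transcripts lay 7246, 1603 and 2658 bases away.

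Transcripts with many exons had a more even division, as seen in the 3 loci that reached the highest exon numbers (1 transcript is described for each). TCONS_00043858 of locus XLOC_027953 (Si_gnH.scaffold00193:98308-165271, minus strand) had 37 exons with 10242 bases in all, of which the last exon held 1845, and its 36 introns ran from 64 to 7572 bases. TCONS_00007376 of XLOC_005607 (Si_gnH.scaffold00005:2246742-2264602, plus strand) had 33 exons and 9607 bases, with no exon above 645 bases. TCONS_00006095 of XLOC_004766 (Si_gnH.scaffold00003:590546-611043, minus strand) had 31 exons and 7048 bases, with no exon above 699. The nearest reference models were 5619, 2140 and 85937 bases away.

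Most loci had a single spliced transcript between genes, models of other classes at the same locus not being counted. Of the 1736 loci, 1256 (72.4%) had 1 spliced transcript between genes, 280 had 2, 110 had 3 and the remaining 90 had 4 to 8. The 480 loci with more than 1 (27.6%) held 1306 transcripts, which is 51.0% of the total. Among loci of junction-sharing models 60.0% had more than 1 such model, and among loci of single-exon transcripts between genes 0.866% did. The former share may partly follow from the class code, which takes only models that differ from the reference. Counted once each, the introns numbered 5470, and 1568 of them (28.7%) recurred in another transcript of the set. At 323 of the 480 loci all forms had at least 1 intron in common, and at 155 some pair of forms had none. Introns that overlapped and shared exactly 1 end, the mark of an alternative splice site or a skipped exon, occurred at 247 loci. An intron of 1 form lay inside an exon of another at 224 loci, as when an intron is kept. Skipping of an exon between unchanged outer splice sites occurred at 32 loci. More than 1 start group, as numbered in the file, was found at 298 of the 480 loci. In all, 170 of 5290 donor sites (3.21%) were joined to more than 1 acceptor, and 178 of 5274 acceptor sites (3.38%) to more than 1 donor.

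The 3 loci with the most forms showed these patterns. XLOC_027953 had 8 forms with 2 to 37 exons and spliced lengths of 3116 to 10320 bases. They used 38 distinct introns, none of them in all 8 forms. The forms were nested and staggered: TCONS_00043855 had 2 exons at the 3′ end of the locus, TCONS_00043856 had 8 and TCONS_00043857 had 17, all with the same last exon of 1845 bases, while TCONS_00043861 and TCONS_00043862 ended near the middle. XLOC_004766 had 7 forms with 6 to 31 exons and 33 distinct introns, with 3 forms confined to its 5′ part and 2 to its 3′ part. XLOC_003355 (Si_gnH.scaffold00001:3267395-3274462, plus strand) was compact, with 7 forms of 3 to 9 exons on 7068 bases and 1 start group. In 1 of them, TCONS_00003779, a second exon of 2990 bases covered what TCONS_00003783 divided into exons of 1208, 103 and 182 bases.

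**Figure D3:**
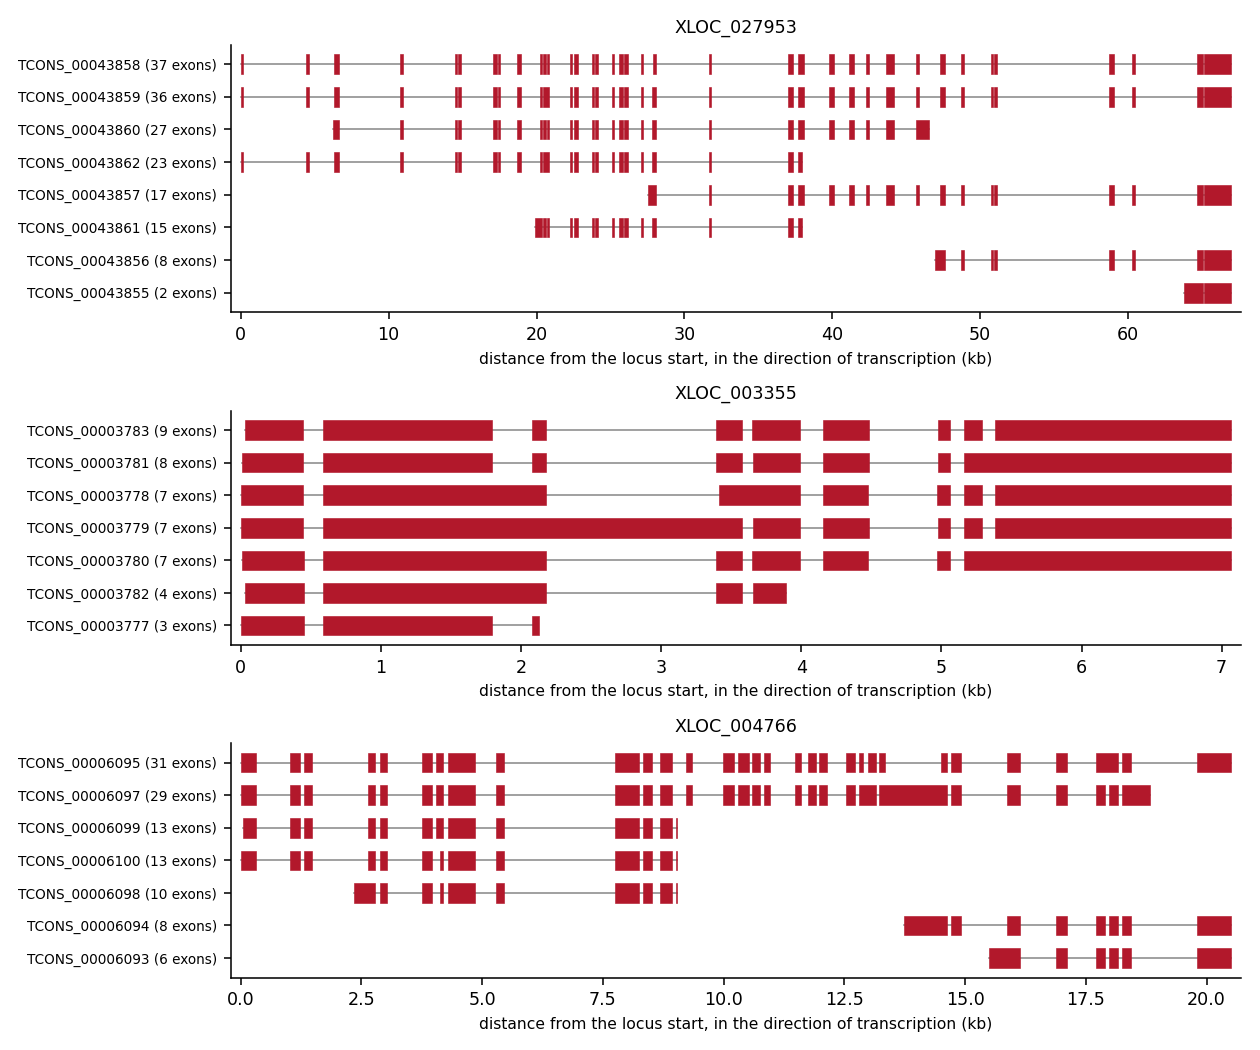
Exons (boxes) and introns (lines) of the 8, 7 and 7 spliced transcripts at the 3 loci with the most forms, drawn to scale in the direction of transcription as distance from the locus start (kb). XLOC_027953 and XLOC_004766 show staggered forms with different starts and ends, and the forms of XLOC_003355 begin within 31 bases of each other and differ in which introns are removed and, for 2 of the 7, in an earlier end.

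At XLOC_003355 some forms also differed by small shifts. Its intron of 139 bases occurred at 2 places 4 bases apart, and its intron of 495 bases at 2 places 6 bases apart. Such pairs, at 1 locus with equal length and both ends moved by 10 bases or fewer, numbered 79 at 72 loci over the whole set. The shift was 2 bases in 43 pairs and 4 bases in 28, and 3, 5 or 6 bases in 8. Which of the paired positions is right could not be read from the models.

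With respect to known genes, no spliced transcript shared a base with the span of a reference model on either strand, as the class code requires, and 1 (TCONS_00038714 on scaffold00131) abutted one at a distance of 0 bases. Spans of other assembled classes were overlapped by 609 (23.8%), by 485 on the same and 164 on the opposite strand. Class u alone made up 1406 loci (81.0%), and 330 loci also contained models of other classes. A reference model was part of the locus for 415 transcripts, of which 200 lay downstream of the reference models, 193 upstream and 22 between them or on both sides. At 91 of the 296 loci concerned there was more than 1 reference model.

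The distance to the nearest reference model was a median of 3377 bases (interval 3113–3856; quartiles 1262 and 9903) for the 2087 transcripts on a sequence with such a model. Single-exon transcripts between genes lay farther away, with a median of 11845.5 bases (interval 11544–12120). For the 2087 spliced transcripts, the nearest transcript of any class other than u lay closer than the nearest reference model. Its distance was a median of 985 bases (interval 840–1170), and 29.2% were at 0. Reference models lay a median of 3096 bases (interval 3009–3184) from the nearest other one, models that overlapped on the same strand being merged. Within 1000 bases of a reference model were 421 spliced transcripts (20.2% of the 2087), 1147 lay from 1000 to just under 10000 bases away and 519 at 10000 bases or more. The farthest loci were XLOC_019443 and XLOC_019442 on scaffold00065, whose 3 forms of 2 to 4 exons and 2 forms of 2 and 3 exons lay 188143 and 170760 bases away. They were followed by XLOC_005686 on scaffold00005 with TCONS_00007571, a transcript of 2 exons at 124605 bases.

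**Figure D4:**
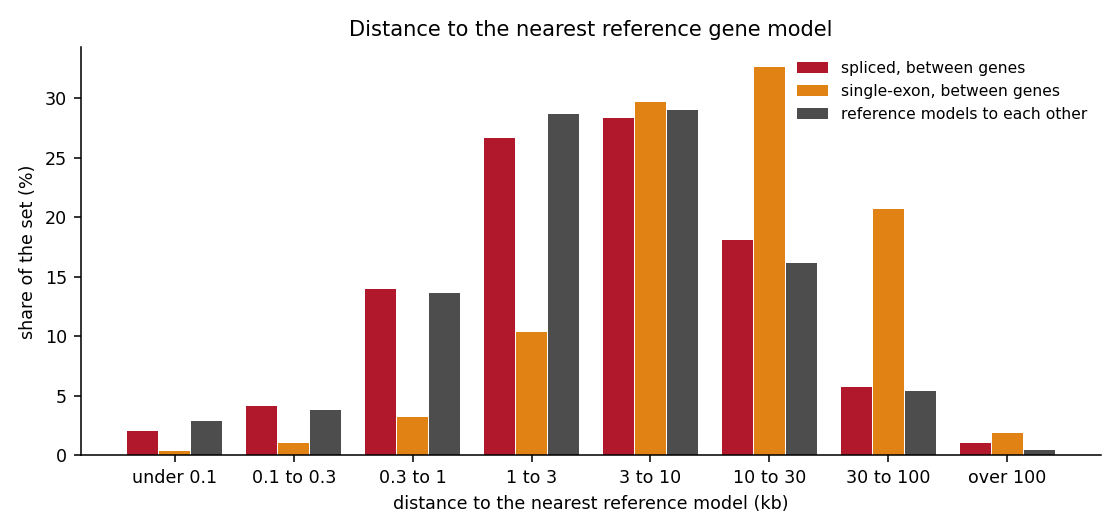
Share (%) of spliced transcripts between genes (red, n = 2087), single-exon transcripts between genes (orange, n = 18896) and merged reference models (grey, n = 15644) by distance to the nearest reference model (kb; for reference models, the nearest other one). Red and grey bars are of like height, and the orange bars are highest at 10 to 30 kb.

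Neighbouring reference models and spliced transcripts were arranged in all possible ways. The transcript lay downstream on the same strand in 569 cases (27.3%), upstream on the same strand in 647 (31.0%), tail to tail in 435 (20.8%) and head to head in 436 (20.9%). The strand was thus shared in 1216 of 2087 cases (58.3%). Among neighbouring reference models 56.6% shared a strand, 25.4% lay tail to tail and 18.0% head to head. Within 1000 bases, the upstream position on the same strand was the most frequent, with 149 of 421 (35.4%, interval 31.0–40.1%), against 94 downstream (22.3%, interval 18.6–26.5%). In loci of class u alone these were 102 and 48 of 294.

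Of 14652 gaps between neighbouring reference models, 920 (6.28%) held at least 1 spliced transcript. They took in 1817 of the transcripts, a further 270 lay outside the outermost reference model of their sequence, and 475 were on sequences without any. No gap under 1000 bases held one. A transcript has to fit inside its gap, and the median span was 3473 bases, so the shares of short gaps are limited by size. The share of gaps with a transcript was 1.15% from 1000 to under 5000 bases, 8.14% from 5000 to under 10000, 10.7% from 10000 to under 50000, 14.1% from 50000 to under 100000 and 20.6% from 100000 bases on. Per megabase, however, gaps of 5000 to under 10000 bases held the most loci (12.4), and those from 100000 bases on the fewest of the classes above 1000 bases (2.22). More than 1 locus was found in 158 gaps.

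The richest gap, Si_gnH.scaffold00003:447804-696980, was 249177 bases long and held 20 loci with 46 spliced transcripts, 9 loci on the plus and 11 on the minus strand. They had 2 to 31 exons with a median of 5, and 11 of the loci had more than 1 form. Besides these, 29 single-exon transcripts and no model of another class lay in the gap. It included XLOC_004766 with its 31 exons and, nearer the end of the gap, XLOC_004666 (682715-695723, plus strand), with 4 forms of up to 27 exons at 1257 bases from the next reference model. XLOC_004662 and XLOC_004762, with 5 exons each, covered the same stretch on opposite strands and had their higher outer end at the same base, 552269. The next gap, Si_gnH.scaffold00065:491026-888046, was 397021 bases long and held 13 loci with 22 transcripts, and all 13 were on the minus strand. Their median was 3 exons, and 58 single-exon transcripts lay among them. A gap of 97151 bases, Si_gnH.scaffold00031:1992028-2089178, held 9 loci with 11 transcripts of 2 to 5 exons, 7 on the minus and 2 on the plus strand.

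Overlaps such as that of XLOC_004662 and XLOC_004762 were found at 84 pairs of loci and involved 262 transcripts (10.2%). In 28 of the 84 pairs, transcripts on opposite strands had an outer end at the same base. No intron had the same ends on both strands.

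The transcripts were spread over 717 of the 4321 sequences of the Si_gnH assembly that carry a model, 367 scaffolds and 350 contigs, and 430 of these had 1 transcript. None was on the mitochondrial sequence. Scaffold00005 had the most, with 90 transcripts at 47 loci, 50 on the plus and 40 on the minus strand. It was followed by scaffold00001 with 76 transcripts at 47 loci and scaffold00015 with 63 at 29 loci. The 10 richest sequences held 558 (21.8%), while they held 10.5% of the reference models and 10.7% of the single-exon transcripts between genes; they were ranked by the first of these counts. On the 34 sequences with at least 100 reference models, the number of spliced transcripts per 100 reference models ran from 3.85 on scaffold00034 to 75.6 on scaffold00005, with a median of 11.6. Scaffold00035, scaffold00055 and scaffold00015 followed with 51.0, 39.0 and 38.4. On scaffold00042, where the study places the odorant-binding protein gene *SiOBP12*, the value was 7.37, from 7 transcripts at 7 loci with 2 to 5 exons, 1 on the plus and 6 on the minus strand.

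**Figure D5:**
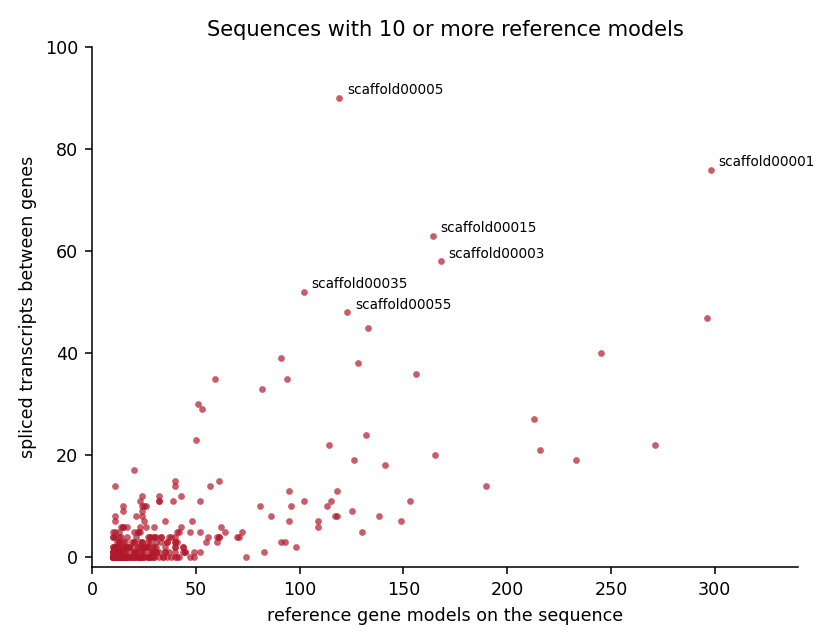
Number of spliced transcripts between genes against the number of reference gene models on each sequence with 10 or more reference models (points); the 6 sequences with the most transcripts are named. Scaffold00005, with 90 transcripts and 119 reference models, lies above scaffold00001 with 76 transcripts and 298 reference models, and most points lie below 20 transcripts.

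Small sequences carried smaller models. On contigs were 432 transcripts (16.9%), compared with 4.17% of the reference models and 10.7% of the single-exon transcripts between genes. Their median was 2 exons and 1037 bases, against 3 exons and 2089.5 bases on scaffolds. The 475 transcripts on sequences without a reference model, from 388 loci on 375 sequences, had a median of 1110 bases, and 49.7% had 2 exons. A start within 50 bases of the first base of the sequence was found for 197 transcripts (7.69%). Some of these small sequences nevertheless had several forms. Scaffold01465 had 6 transcripts, of which the 5 of XLOC_036942 on the plus strand had 4 to 10 exons (TCONS_00057187, with 10 exons and 5473 bases, began at base 7). Contig22786 had 5 forms of XLOC_000501 with 2 to 4 exons, and scaffold01176 had 5 forms of XLOC_036687 with 3 or 4 exons between the same outer ends (TCONS_00056870, for example, ran from base 714 to base 5003).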

How the data were processed

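Transcript models were taken from the deposited file of merged Cufflinks models on the Si_gnH assembly, which the authors built from the 3 NuGEN-amplified libraries, per its name. The processing notes name Bowtie2, RSEM and Cuffdiff; the settings of this assembly are not given in the sources used here. Exon positions in bases were used as deposited, and introns, lengths and distances were computed with Python 3.11.15, pandas 2.3.3 and numpy 2.4.6 by code tested on simulated models. The deposited expected counts, which the authors made with RSEM on another transcript reference and did not normalize, served for library totals only. Of the 1736 XLOC numbers, 146 occur in those tables and 0 with a length within 1 base, so the tables were not joined. Of all model and reference identifiers, 0 matched the RefSeq gene table.

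Medians carry 95% order-statistic intervals and shares Wilson intervals. No test was run. The transcripts named were the 3 with the highest or lowest value of each measure, with 1 transcript taken per locus, beside the 3 loci with the most forms, the 3 richest gaps and sequences, and scaffold00042; loci given beyond these, including those in the search for equal exon lengths, shifted introns and overlaps between strands, were chosen after their values were seen. Members and measures were chosen with earlier results of these data known. Alternatives were 1 form per locus, scaffolds only, sequences with a reference match only, limits on intron length, distance and spliced length, distinct intervals, internal exons, and other definitions of the nearest model.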

Additional observations from a re-analysis of the deposited data

How the results depend on the processing

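Of 51 alternative values, 25 stayed within the interval of the value reported (for shares and medians alike) and 26 left it. None has a test. The order against junction-sharing models, whose median intron was 191 bases and was not recomputed, did turn for introns. The median intron of the spliced transcripts fell below 191 bases in the settings that gave 189 and 182 bases. It stayed above in the others, at 198 to 219 bases. With only the longest form per locus, the share with 2 exons was 45.6%, the median exon 263 bases, intron 189 bases, spliced length 1718 bases and distance to the nearest transcript of another class 735 bases (985 in the whole set), and the 10 richest sequences held 18.5%. On scaffolds only, 10.005% of transcripts of class u were spliced, 34.5% of the spliced ones had 2 exons, the median intron was 215.5 bases and the spliced length 2089.5 bases, 31.0% of loci had more than 1 form, and the 10 richest sequences held 26.2%. On sequences with a model of class = these 6 values were 9.95%, 34.4%, 216 bases, 2086 bases, 31.2% and 26.7%. Without transcripts with an intron over 10000 bases, the median intron was 182 bases. With distinct intervals counted once, the medians were 259 bases for exons and 219 for introns, and internal exons alone had 177. At least 1000 bases from another class, the median intron was 182 bases and the spliced length 1681.5. The distance was 3201 bases to the nearest model of class = and 2939.5 to the nearest of another class on the same strand. A minimum of 500 bases moved no value out of its interval. No paired analysis was possible because each worker class had 1 library and the models pool all 3, so no library could be left out. The share of canonical splice sites was not computed, since no genome was used. Only what the assembly recovered is counted: how many spliced transcripts it missed, or recovered in pieces at the ends of sequences, cannot be read from the models.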

Other observations

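The exon lengths were compared between loci after the values above had been seen. For each model with 5 or more exons, every run of 3 consecutive internal exon lengths was listed. Of the 444 loci with a spliced transcript of that size between genes, 57 shared such a run with another locus. The same share was not taken for loci of other classes, so whether it is high or low cannot be said. Among the runs, that of 100, 111 and 156 bases was carried by a spliced transcript between genes at the most loci. It occurred at 13 loci on 3 sequences, at 6 of them in such a transcript. A run of 91, 137 and 133 bases also occurred at 13 loci, at 3 of them in such a transcript, and the 13 were spread over 6 sequences. For the former run, 7 loci were on the plus strand of scaffold00005 between bases 6857 and 139985, 3 on the plus strand of scaffold00021 between bases 2122076 and 2147671, and 3 on the minus strand of scaffold00026 between bases 162 and 15995. A reference model itself carried the run at 2 of the 13. In the 6 transcripts the first and last exons differed widely while the 3 internal exons were equal in length. TCONS_00007201 (XLOC_005538, 5 exons, 2048 bases) began with 252 and ended with 1429 bases, and TCONS_00019147 (XLOC_012875, 5 exons, 1028 bases) began with 105 and ended with 556. TCONS_00016928 (XLOC_011444) had a further internal exon of 286 bases before the run. Their introns differed as well, the first from 93 bases in TCONS_00007201 to 614 in TCONS_00007213. Runs with the same outer lengths and another middle length were 100, 120 and 156 bases at 7 loci, 100, 126 and 156 at 5 and 100, 108 and 156 at 3. Another run, of 231, 114 and 156 bases, occurred at 8 loci, all on 1 sequence, and at 3 of these loci in a spliced transcript between genes. Equal lengths were not compared as sequence, and whether these loci are related was not tested.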
